A study of Rattus norvegicus with 30 samples.

Results

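Gene expression in the rat colon 24 h after irinotecan was compared with that in the colon of untreated rats. The comparison rests on 4 of the 30 arrays of the series, 2 at 24 h and 2 at 0 h, which were taken by their labels for tissue and time with no measured value involved. Female rats of the DA strain, 10 weeks old, had been given 1 intraperitoneal injection of irinotecan at 200 mg/kg while lightly anaesthetised with halothane, and groups of 6 were killed after 1, 6, 24 or 72 h. The 0 h group of 6 rats had no irinotecan, and the labels do not say whether these rats were anaesthetised or injected with anything. All rats were caged singly and could eat and drink freely. Each array held the RNA of 3 rats pooled, so each time had 2 pools, and the p-values below measure the spread between such pools and not between single rats. The RNA came from flushed pieces of the whole colon, which hold epithelium, lamina propria, muscle, nerves and vessels. A lower signal from fewer cells of a type and one from less RNA per cell therefore cannot be told apart.

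Irinotecan is a prodrug that carboxylesterases turn into SN-38, which traps topoisomerase I on DNA so that replication forks meeting the trapped enzyme leave double-strand breaks. Cells so damaged halt before mitosis or die, and p53 raises inhibitors of the cell cycle such as p21, the product of Cdkn1a. The colon is a site of dose-limiting toxicity in patients, in part because bacterial enzymes in its lumen free SN-38 from its glucuronide. Its crypts hold stem cells and dividing progenitors at the base, and goblet cells, enteroendocrine cells and absorptive colonocytes above them.

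All values are log2 signals of the deposited table, and a difference of 1 on this scale is a factor of 2. The colon markers were bright at 0 h, with Car1, a carbonic anhydrase of colonocytes, at 12.31 and 12.61, the chloride exchanger Slc26a3 at 12.28 and 12.22, and the gel-forming mucin Muc2 at 13.48 and 13.57. Replicate 1 at 24 h stood apart in transcripts of the stomach. Pgc, which encodes the gastric protease precursor progastricsin, read 13.67 there, against 6.96 in 24 h replicate 2 and between 6.48 and 9.76 over all the other colon arrays. Atp4a, a subunit of the acid pump of parietal cells, read 9.41 there and 6.64 in replicate 2. The correlation between the pools over all probe sets was 0.9825 at 24 h and 0.9925 at 0 h. The gap between the 3' and 5' Gapdh control probe sets, a sign of RNA quality, was 0.346 and 0.385 at 24 h and 0.273 and 0.096 at 0 h. The results are therefore also given without 24 h replicate 1, and the part of the gastric RNA or of RNA quality in them was not tested.

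**Figure D1:**
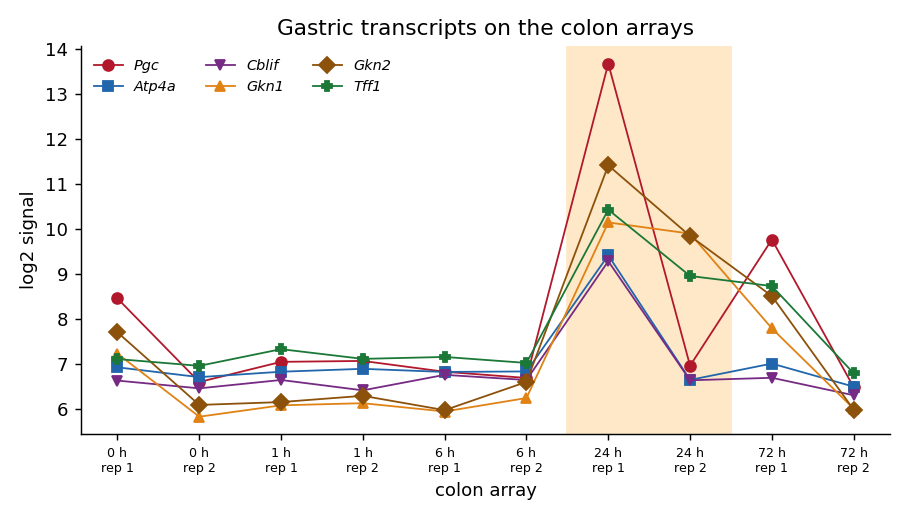
The log2 signal (y axis) of 6 gastric transcripts is plotted for each of the 10 colon arrays (x axis, ordered by time and replicate, with the 24 h arrays shaded). Pgc, Atp4a and Cblif are high in 24 h replicate 1 and not in replicate 2, whereas Gkn1 reads 10.14 and 9.89 on the 2 arrays.

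Of 31042 probe sets, 355 (1.14%) passed an adjusted p of 0.05 in limma between 24 h and 0 h. More of them were lower at 24 h than higher, with 265 (0.854%) lower and 90 (0.29%) higher, and 103 of the lower and 26 of the higher ones differed at least 2-fold. They named 209 genes that fell and 77 that rose. The shares above are the background for each count of calls in a gene list below. For all 355 the 2 arrays at 24 h lay on the same side of both 0 h arrays. Selection by p-value with 2 arrays a group makes this likely, so it adds no support to the calls. The share over all probe sets was not counted. The median log2 fold change over all probe sets was 0.03, with 17155 of the 31042 above 0 and 13887 below. At an unadjusted p under 0.05 in limma stood 5196 of them, in either direction. Without 24 h replicate 1, 118 probe sets (0.38%) were lower and 87 (0.28%) higher, and these included 104 of the 265 lower and 34 of the 90 higher calls. Without 24 h replicate 2 the count was 595, without 0 h replicate 1 it was 105, and without 0 h replicate 2 no probe set passed (smallest adjusted p 0.0506, with 2848 at an unadjusted p under 0.05).

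**Figure D2:**
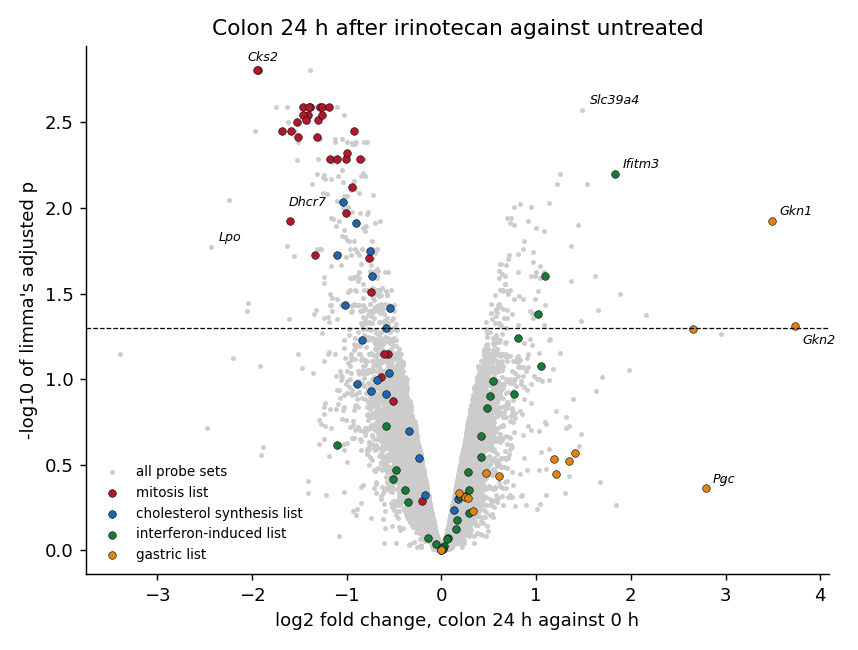
Each point is a probe set, with its log2 fold change between 24 h and 0 h on the x axis and -log10 of limma's adjusted p on the y axis, and the dashed line marks an adjusted p of 0.05. The mitosis list (red) gathers at the upper left with 30 of its 35 genes above the line, and Gkn1 and Gkn2 lie farthest to the right.

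Of the 54 gene lists examined, that of mitosis held the most genes that fell. Of its 35 measured genes, 30 fell, 5 did not pass and none rose, against 0.854% of all probe sets lower. The median log2 fold change of the list was -1.27, against 0.03 over all probe sets, and all 35 genes lay below their 0 h mean on both 24 h arrays. Cks2, a small protein that binds cyclin-dependent kinases, read 9.90 and 10.09 at 0 h and 7.89 and 8.23 at 24 h. Both 24 h pools lay far below both untreated pools, and the log2 fold change was -1.94 ± 0.15 (SE, 2 pools a group, limma adjusted p = 0.00156), a 3.83-fold fall. Cdkn3, a phosphatase that acts on Cdk1 and Cdk2, read 9.78 and 9.76 at 0 h and 7.83 and 7.82 at 24 h (-1.94 ± 0.16, adjusted p = 0.00156).

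The kinase that drives entry into mitosis and its cyclins fell together. Cdk1 read 9.29 and 9.49 at 0 h and 7.47 and 8.11 at 24 h (log2 fold change -1.60 ± 0.23, limma adjusted p = 0.0118). Its partner Ccnb2 read 9.47 and 9.58 at 0 h and 7.68 and 7.99 at 24 h (-1.69 ± 0.19, adjusted p = 0.00355), and Ccnb1 8.75 and 8.90 against 7.45 and 7.39 (-1.40 ± 0.15, adjusted p = 0.00286). Ccna2, the cyclin of S and G2 phase, went from 8.41 and 8.57 to 6.70 and 7.10. As for every call, in none of these did a 24 h pool reach a 0 h pool. The spindle checkpoint kinase Bub1 fell by 1.53 on the log2 scale, and Ube2c, the ubiquitin-conjugating enzyme of the anaphase-promoting complex, fell by 1.51. Mki67, which encodes the Ki-67 antigen of dividing cells, read 9.73 and 9.66 at 0 h and 8.24 and 8.23 at 24 h. Top2a, the topoisomerase that untangles chromosomes, read 9.48 and 9.60 at 0 h and 7.99 and 8.29 at 24 h. The kinetochore proteins Cenpf and Nuf2, the motors Kif11 and Kif20a and the spindle assembly factor Nusap1 fell too, with log2 fold changes of -1.39, -0.94, -1.28, -1.26 and -1.46.

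The 5 members that did not pass were Kif2c, Cenpe, Kif23, Plk1 and Cenpa, with log2 fold changes from -0.64 to -0.20. Outside the list, Cenpw, a further centromere protein, read 7.40 and 7.36 at 0 h and 5.70 and 6.00 at 24 h (-1.53 ± 0.19, limma adjusted p = 0.00524). Of the 15 genes with the lowest fold changes, 8 belonged to the mitosis list. Leaving out 24 h replicate 1, 24 h replicate 2, 0 h replicate 1 and 0 h replicate 2 in turn left 27, 29, 25 and 0 of the 30 calls, with the list's median between -1.31 and -1.20. Without 0 h replicate 2 the adjusted p of these 30 lay between 0.0544 and 0.318. With the mean of Pgc, Atp4a and Gkn1 (the gastric term) added to the fit, 12 genes of the list were called and its median was -1.18. This mean was 11.08 and 7.83 at 24 h and 7.54 and 6.38 at 0 h. It thus partly followed the times compared, and the fit cannot fully separate them.

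**Figure D3:**
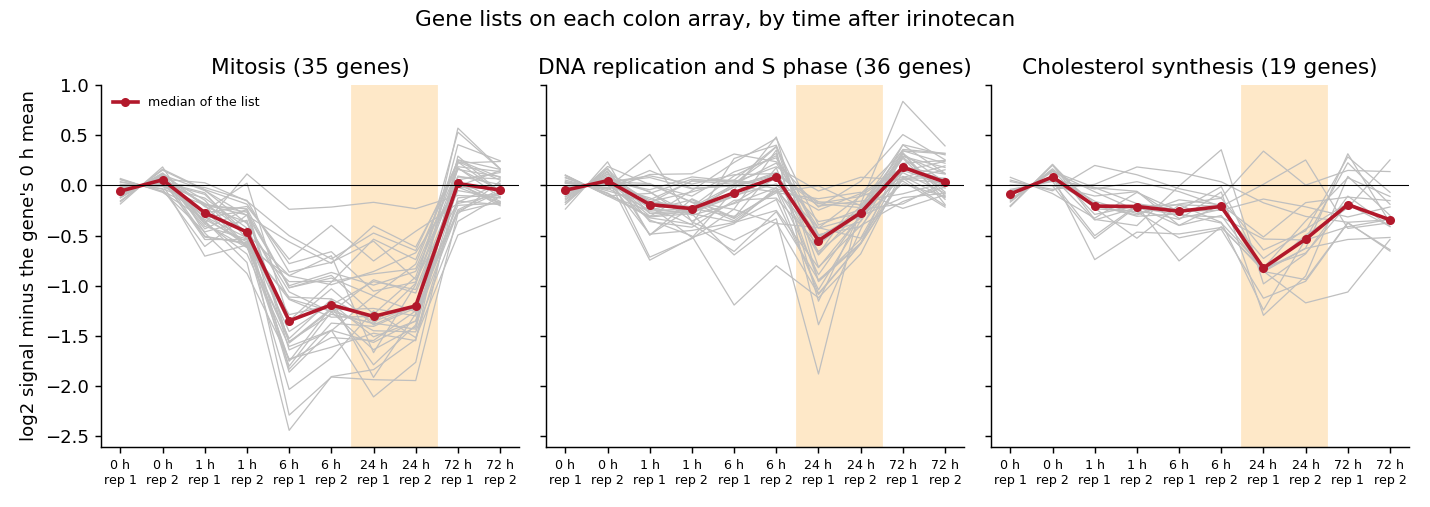
Each grey line is a gene and the red line the median of its list, as log2 signal minus the gene's 0 h mean (y axis), on the 10 colon arrays in order of time and replicate (x axis, the 24 h arrays shaded). The mitosis median is -1.31 and -1.20 on the 24 h arrays, near its level at 6 h and below that at 72 h, whereas the DNA replication and cholesterol medians are lowest at 24 h.

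Many promoters of mitotic genes carry a pair of elements, the CHR (cell cycle genes homology region), which the DREAM and MuvB complexes bind, and CCAAT boxes, which NF-Y binds. The promoters below are those of 4 members that fell, shown because their products are the kinase, a cyclin, a kinase subunit and the topoisomerase described above. Each is the 120 bases before the RefSeq start in the build GRCr8, 5′ to 3′ on the strand of the gene, with matches to the CHR (TTTGAA, or TTCAAA on the other strand) and to the CCAAT box (CCAAT, or ATTGG on the other strand) in capitals.
Ccnb2, chr8:79981659-79981778, minus strand: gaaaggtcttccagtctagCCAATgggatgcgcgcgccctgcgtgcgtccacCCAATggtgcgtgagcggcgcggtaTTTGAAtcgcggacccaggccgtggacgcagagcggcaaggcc
Cks2, chr17:13727520-13727639, minus strand: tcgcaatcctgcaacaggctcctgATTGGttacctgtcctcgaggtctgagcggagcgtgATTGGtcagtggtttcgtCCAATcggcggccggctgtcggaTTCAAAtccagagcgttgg
Cdk1, chr20:19265173-19265292, plus strand: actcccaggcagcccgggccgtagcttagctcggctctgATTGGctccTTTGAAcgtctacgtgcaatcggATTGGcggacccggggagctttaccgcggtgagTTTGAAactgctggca
Top2a, chr10:84473094-84473213, minus strand: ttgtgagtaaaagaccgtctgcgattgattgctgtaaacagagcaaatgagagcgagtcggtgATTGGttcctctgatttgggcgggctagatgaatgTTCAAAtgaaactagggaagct
All 4 hold at least 1 match to each element within these bases.

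Over windows from 250 bases before to 50 bases after the start, 31 of the 35 mitosis genes had a RefSeq promoter. The CHR letters were found in 24 of them (77.4%), against 1445 of 11733 promoters of measured genes (12.3%) and 18.3% of all 33469 promoters of the table. CCAAT letters were also found in 24 of the 31 (77.4%), against 37.3% of measured genes, and 20 of the 31 (64.5%) held both, with the letters overlapping in 2. Among the 182 promoters of genes that fell, 54 (29.7%) held the CHR letters, and 33 of 156 (21.2%) did once the mitosis list was left out. Of the 62 promoters of genes that rose, 6 (9.68%) held them, and of the 32 promoters of the DNA replication list, 1 (3.12%). A match is a description of these letters and not a measured binding site.

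Comparison with the neighbouring times shows when these transcripts were low. At 6 h the mitosis list had a median of -1.23 against 0 h and at 24 h -1.27, contrasts that share their untreated arrays. In the direct contrast of 24 h with 6 h none of the 35 passed in either direction in limma. At an unadjusted p under 0.05, 4 were higher and 3 lower, against 3232 of all 31042 probe sets in either direction. Over all probe sets 26 were lower (0.0838%), 149 higher (0.48%) and 175 called in all (0.564%). The lack of calls in the list does not show equal levels: the difference was 0.49 ± 0.19 for Ccnb2 and -0.41 ± 0.16 for Cks2. At 72 h the list's median against 0 h was -0.03. In the direct contrast of 24 h with 72 h, 32 of the 35 were lower at 24 h, where 1365 of all probe sets (4.4%) were lower, 723 (2.33%) higher and 2088 called in all (6.73%). Cdk1 read 7.47 and 8.11 at 24 h and was 1.97 ± 0.23 lower than at 72 h (log2 difference -1.97, limma adjusted p = 0.00301), and Ccnb2 was at -1.58 ± 0.19 (adjusted p = 0.00301). Without 24 h replicate 1 the contrast with 6 h called 12 probe sets and that with 72 h called 293. The 72 h arrays had their own marks of other tissues, with Pgc at 9.76 in replicate 1 and a median level of 11.49 over 20 pancreatic acinar transcripts in replicate 2, against at most 8.66 on the other colon arrays. Of the 265 probe sets that were lower than at 0 h, 186 were also lower than at 72 h and 11 lower than at 6 h. These contrasts share the 24 h arrays, so such overlap is partly built in and adds no separate support.

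Genes of DNA replication and S phase moved less. Of 36 measured, 3 fell, against 0.854% of all probe sets lower, and none rose. The median was -0.42 and 35 lay below 0, against 13887 of all 31042 probe sets. The 3 were Pola1, the catalytic subunit of DNA polymerase alpha, Prim1, the primase that works with it, and Dut, which removes dUTP before it can enter DNA. Pola1 read 7.74 and 7.79 at 0 h and 6.65 and 7.08 at 24 h (log2 fold change -0.90 ± 0.16, limma adjusted p = 0.0307). Prim1 read 8.94 and 9.01 against 7.89 and 8.39, and Dut 10.22 and 10.32 against 9.18 and 9.69. In each the lower 24 h value was that of replicate 1. A second probe set of Dut stood at -0.25 and did not pass. The list's median was -0.55 in replicate 1 and -0.27 in replicate 2, and without replicate 1 none of the 3 calls passed (adjusted p 0.107 to 0.137). None passed without either 0 h pool. Mcm5, a subunit of the replicative helicase, had a log2 fold change of -0.43 ± 0.14 (adjusted p = 0.16) and Pcna, the sliding clamp, one of -0.71 ± 0.24 (adjusted p = 0.191). At 6 h the median of this list was -0.00 against 0 h, and in the direct limma contrast with 6 h none passed. At an unadjusted p under 0.05, 19 were lower in that contrast, against 3232 of all 31042 probe sets in either direction. Against 72 h, 18 of the 36 were lower at 24 h, among them Mcm3, Mcm4, Mcm5, Mcm6 and Mcm7, where 4.4% of all probe sets were lower.

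The checkpoint kinase Chek1, which holds cells with stalled forks before mitosis, read 7.96 and 8.0 at 0 h and 7.00 and 7.45 at 24 h (-0.75 ± 0.15, limma adjusted p = 0.0401). It was also lower than at 6 h (-0.81 ± 0.15, adjusted p = 0.0448). It was the only one of 21 genes of double-strand break and mismatch repair that passed, and it did not without 24 h replicate 1 (adjusted p = 0.126), 0 h replicate 1 (0.151) or 0 h replicate 2 (0.364). The target of the drug, Top1, read 10.08 and 9.82 at 0 h and 9.92 and 9.65 at 24 h (-0.16 ± 0.14, adjusted p = 0.584), with overlapping groups. In the list of topoisomerase I and lesion repair, Top2a alone of 14 genes passed.

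No target of p53 passed limma's threshold. At an unadjusted p under 0.05, 5 of 25 were higher, against 5196 of all 31042 probe sets in either direction. Of the 25 measured, 22 lay above 0, against 17155 of all 31042 probe sets. The median was 0.13 against 0.03 over all probe sets. Cdkn1a, whose product p21 inhibits cyclin-dependent kinases, read 9.36 and 8.88 at 0 h and 9.81 and 9.91 at 24 h. Both 24 h values lay above both at 0 h, and the log2 fold change of 0.75 ± 0.18 did not pass (limma adjusted p = 0.0895). A second, dimmer probe set of Cdkn1a stood at 0.046 and did not pass. Cdkn1a was higher at 24 h than at 72 h (1.00 ± 0.18, adjusted p = 0.0151). Mdm2, the ubiquitin ligase of p53, had one of 0.16 ± 0.10 (adjusted p = 0.451). Ccng1, cyclin G1, read 9.28 and 9.23 at 0 h and 9.30 and 9.88 at 24 h, and Phlda3, an inhibitor of Akt, 7.68 and 7.80 against 7.88 and 8.48. For both genes the rise lay in replicate 2, and without replicate 1 Phlda3 passed (0.74, adjusted p = 0.0358) while Ccng1 did not (0.63, adjusted p = 0.137). Of 23 apoptosis regulators, Bok, a relative of Bax, rose from 9.82 and 9.90 to 10.63 and 10.56 (0.74 ± 0.11, adjusted p = 0.0115), and the others did not pass. Bok passed without 24 h replicate 2 (adjusted p = 0.0219), and it did not without 24 h replicate 1 (0.057), 0 h replicate 1 (0.0866) or 0 h replicate 2 (0.116).

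Of 16 genes of irinotecan activation and efflux, 1 fell and none rose, against 0.854% of all probe sets lower and 0.29% higher. Ces1e, a carboxylesterase, read 7.98 and 7.89 at 0 h and 6.88 and 7.11 at 24 h (-0.94 ± 0.11, limma adjusted p = 0.00415). It passed without either 24 h pool and without 0 h replicate 1, and reached an adjusted p of 0.0658 without 0 h replicate 2. Ces2c, a carboxylesterase of the gut, read 7.55 and 7.39 at 0 h and 8.10 and 9.04 at 24 h (1.10 ± 0.37, adjusted p = 0.183). Abcb1a, the efflux pump P-glycoprotein, read 9.97 and 9.77 against 10.52 and 9.64, with overlapping groups.

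Among 40 genes of absorptive colonocytes and ion transport, 3 fell and 1 rose, against 0.854% of all probe sets lower and 0.29% higher. The median was 0.07. The 3 that fell serve chloride secretion or bicarbonate entry at the basolateral side. Slc4a4, a sodium bicarbonate cotransporter, read 9.40 and 9.65 at 0 h and 8.05 and 8.03 at 24 h (-1.49 ± 0.14, limma adjusted p = 0.00256), a 2.80-fold fall. The calcium-activated potassium channel Kcnn4 went from 8.23 and 8.38 to 7.21 and 7.32 (-1.04 ± 0.14, adjusted p = 0.00705). The potassium channel Kcnq1 went from 8.65 and 8.61 to 7.90 and 7.78 (-0.79 ± 0.11, adjusted p = 0.0108). All 3 passed without 24 h replicate 1. Cftr, the apical chloride channel, read 10.00 and 10.04 at 0 h and 9.40 and 9.20 at 24 h, and did not pass (-0.72 ± 0.15, adjusted p = 0.0589).

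The member that rose was Sgk1, a kinase induced by corticosteroids that stimulates sodium uptake, from 11.78 and 11.58 to 12.71 and 12.66 (1.00 ± 0.15, limma adjusted p = 0.0131). It did not pass without 24 h replicate 1 (log2 fold change 0.98). With Mt2A it was 1 of 2 calls among 19 glucocorticoid-induced genes, against 1.14% of all probe sets called. Car1, Aqp8 (a water channel) and Slc26a3 had log2 fold changes of 0.76, 1.03 and 0.29, none past the threshold. Aqp8 was high in 24 h replicate 1 alone, at 12.18 against 10.81 in replicate 2 and 10.54 and 10.40 at 0 h. Leaving out 24 h replicate 1, 24 h replicate 2, 0 h replicate 1 and 0 h replicate 2 in turn left 3, 4, 2 and 0 of the 4 calls in this list.

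Transcripts of goblet cells, which secrete mucus, differed between the 2 pools at 24 h. Of 21 genes, 16 lay below their 0 h mean in replicate 1 and 14 above it in replicate 2, with medians of -0.82 and 0.19. Muc2 read 13.48 and 13.57 at 0 h and 12.62 and 13.49 at 24 h. The trefoil factor Tff3, the chloride channel regulator Clca1 and the mucus protein Fcgbp lay 1.37, 1.92 and 1.63 below their 0 h means in replicate 1 (log2 differences of -1.37, -1.92 and -1.63), and at 1.16, 0.21 and 0.26 in replicate 2. The list so divided held 1 call, Creb3l1, a transcription factor of secretory cells, from 9.54 and 9.88 to 8.63 and 8.91 (-0.94 ± 0.16, limma adjusted p = 0.0256, and 0.102 without replicate 1). Of 22 genes of crypt stem cells and their niche none passed in limma. At an unadjusted p under 0.05, 5 were lower and 1 higher, against 5196 of all 31042 probe sets in either direction. The median was -0.22 and 18 lay below 0, against 13887 of all probe sets. Lgr5, the receptor that marks crypt base stem cells, read 6.56 and 6.37 at 0 h and 6.14 and 5.93 at 24 h (-0.42 ± 0.15, adjusted p = 0.204).

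Several genes of secreted proteins and of epithelial signalling were among the lowest. Lpo, the secreted antimicrobial enzyme lactoperoxidase, had the lowest fold change, from 11.26 and 11.57 to 8.39 and 9.57 (-2.43 ± 0.38, limma adjusted p = 0.0168), a 5.39-fold fall. Ccn3, a matricellular protein, went from 10.86 and 11.17 to 8.24 and 9.70 (-2.05 ± 0.40, adjusted p = 0.04). In both the lower value was that of 24 h replicate 1. B3gnt7, a glycosyltransferase that extends polylactosamine chains, went from 8.67 and 9.38 to 7.20 and 6.76 (-2.04 ± 0.38, adjusted p = 0.0358). Tifa, an adaptor of NF-kB signalling, went from 8.59 and 9.56 to 7.23 and 7.66, and both its groups were spread. Egf, the ligand of the epidermal growth factor receptor, went from 8.79 and 8.82 to 6.96 and 7.40 (-1.62 ± 0.18, adjusted p = 0.00314). It was the only one of 14 EGF family ligands and receptors to pass, against 1.14% of all probe sets.

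Sema5a, a semaphorin, went from 7.94 and 8.55 to 6.70 and 6.69 (-1.55 ± 0.17, limma adjusted p = 0.00355). Its other probe sets disagreed in size, from -0.73 ± 0.12 to 0.13 ± 0.11. Duox2, the oxidase that supplies hydrogen peroxide at the mucosal surface, went from 10.71 and 10.99 to 9.55 and 9.84 (-1.15 ± 0.21, adjusted p = 0.0336), the only call among 19 genes of antimicrobial and mucosal defence. Cldn4, a claudin of tight junctions, rose from 10.23 and 10.02 to 11.38 and 10.95 (1.04 ± 0.18, adjusted p = 0.0258), the only call among 25 genes of cell junctions. For both lists the share called over all probe sets was 1.14%. Egf and Sema5a passed without 24 h replicate 1, whereas Lpo (adjusted p = 0.0587), Ccn3 (0.0871), B3gnt7 (0.0704), Tifa (0.0745), Duox2 (0.121) and Cldn4 (0.0997) did not. Over the 15 genes of lowest fold change, leaving out 24 h replicate 1, 24 h replicate 2, 0 h replicate 1 and 0 h replicate 2 in turn left 10, 14, 10 and 0 calls.

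Genes of cholesterol synthesis were a further group with several calls. Of 19 measured, 7 fell, against 0.854% of all probe sets lower, and none rose. The median was -0.68 and 17 lay below 0, against 13887 of all 31042 probe sets. The 7 span the pathway from mevalonate to cholesterol: Mvd, Idi1, Fdft1 (squalene synthase), Lss (lanosterol synthase), Cyp51 (lanosterol demethylase) and Dhcr7, together with the sterol carrier Stard4. Dhcr7, which makes cholesterol in the last step, read 8.87 and 9.28 at 0 h and 7.95 and 8.12 at 24 h (-1.04 ± 0.15, limma adjusted p = 0.00922). Cyp51 read 11.64 on both 0 h arrays and 10.78 and 10.70 at 24 h (-0.90 ± 0.13, adjusted p = 0.0122). Idi1, isopentenyl diphosphate isomerase, went from 10.51 and 10.79 to 9.35 and 9.74 (-1.10 ± 0.18, adjusted p = 0.0189). As for every call, no 24 h pool reached a 0 h pool in any of the 3. Insig1 and Srebf2, which regulate the pathway, had log2 fold changes of 0.17 and 0.13 and did not pass.

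The median of the list was -0.82 in 24 h replicate 1 and -0.54 in replicate 2. Leaving out 24 h replicate 1, 24 h replicate 2, 0 h replicate 1 and 0 h replicate 2 in turn left 1, 5, 1 and 0 of the 7 calls, Cyp51 being the one that remained without 24 h replicate 1 (adjusted p = 0.0432 in limma). With the gastric transcripts as a term none of the list was called, and its median was -0.52. In the direct contrast with 6 h, 1 gene of the list, Hsd17b7, was lower at 24 h. In that with 72 h, 4 were lower (Idi1, Fdps, Tm7sf2 and Nsdhl) and Srebf2 was higher, where 4.4% and 2.33% of probe sets were. CCAAT letters stood in 13 of 15 promoters of this list (86.7%), against 37.3% of measured genes.

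Other metabolic groups held few calls. Of 29 genes of fatty acid oxidation and fasting, Cpt1a, which admits fatty acids to mitochondria, rose from 10.26 on both 0 h arrays to 10.87 and 10.82 (0.58 ± 0.11, limma adjusted p = 0.0401). A second probe set of Cpt1a stood at 0.31 and did not pass. Bdh1, a ketone body dehydrogenase, fell from 9.53 and 9.86 to 8.66 and 8.98 (-0.87 ± 0.15, adjusted p = 0.0258). Cpt1a and Bdh1 were the 2 calls of that list, against 1.14% of all probe sets called. Neither passed without 24 h replicate 1 (adjusted p 0.102 to 0.12). Pdk4, a kinase induced by fasting, had a log2 fold change of 1.21 ± 0.38 (adjusted p = 0.154). None of 37 genes of the respiratory chain, 35 of ribosome biogenesis, 24 of cytosolic ribosomal proteins or 30 proteasome subunits passed in limma. At an unadjusted p under 0.05, 14, 9, 10 and 1 were lower and none higher, against 5196 of all 31042 probe sets in either direction. The medians of these 4 lists were -0.23, -0.20, -0.34 and -0.12, and without 24 h replicate 1 they were -0.14, -0.07, -0.09 and 0.15.

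Of 17 genes of amine and polyamine metabolism, 1 rose and 2 fell, against 0.29% of all probe sets higher and 0.854% lower. The median of the list was -0.07, with 7 genes above 0 and 10 below. Aoc1, the diamine oxidase that breaks down histamine and putrescine, rose from 10.36 and 10.35 to 11.47 and 11.50 (1.13 ± 0.16, limma adjusted p = 0.00938). Ddc, which makes serotonin and dopamine from their precursors, fell from 9.01 and 9.21 to 7.86 and 8.32 (-1.02 ± 0.16, adjusted p = 0.0147). A second probe set of Ddc stood at -0.05 and did not pass. Maoa, monoamine oxidase A, fell from 10.67 and 10.70 to 10.02 and 9.80 (-0.77 ± 0.16, adjusted p = 0.0467). Without 24 h replicate 1, Aoc1 passed (log2 fold change 1.15) and Ddc (-0.79) and Maoa (-0.88) did not. Without 0 h replicate 1 or 0 h replicate 2 these genes, Aoc1 included, did not pass. Of 20 genes of the ATF4 response and serine synthesis, Cth, which makes cysteine, fell from 8.69 and 8.83 to 7.80 and 7.87, and Pck2, mitochondrial phosphoenolpyruvate carboxykinase, from 9.22 and 9.32 to 8.31 and 8.57. These were the 2 calls of that list, against 1.14% of all probe sets called. Cth passed without 24 h replicate 1 (adjusted p = 0.0404) and Pck2 did not (0.0651).

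Genes of zinc and of stress defence were among those that rose. Slc39a4, the zinc importer Zip4 of enterocytes, read 8.90 and 9.14 at 0 h and 10.39 and 10.63 at 24 h (1.49 ± 0.15, limma adjusted p = 0.00266), a 2.81-fold rise. It was also higher than at 6 h (1.40 ± 0.15, adjusted p = 0.0107) and than at 72 h (1.37 ± 0.15, adjusted p = 0.00272). Mt2A, a metallothionein that binds zinc and copper, read 9.98 and 10.02 at 0 h and 11.58 and 11.38 at 24 h (1.48 ± 0.30, adjusted p = 0.0457). These were the 2 calls among 10 genes of metallothioneins and zinc transport, against 1.14% of all probe sets called. Slc39a4 passed without any 1 array other than 0 h replicate 2 (adjusted p = 0.0556), whereas Mt2A did not pass when any 1 of the 4 was left out.

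The small heat shock proteins Cryab and Hspb1 were the 2 calls among 14 heat shock genes, against 1.14% of all probe sets called. Cryab, alpha-B crystallin, rose from 9.38 and 9.43 to 10.80 and 10.46 (1.22 ± 0.16, limma adjusted p = 0.00724), and Hspb1 from 10.50 and 10.27 to 11.13 and 11.36 (0.86 ± 0.14, adjusted p = 0.0173). Both passed without 24 h replicate 1, Cryab alone without 24 h replicate 2 (Hspb1 adjusted p = 0.0508), and neither without 0 h replicate 1 (0.0633 and 0.0589) or 0 h replicate 2 (0.0963 and 0.248). Of 31 genes of glutathione and oxidative stress defence, 3 rose and 1 fell, against 0.29% of all probe sets higher and 0.854% lower. The transcription factor Nfe2l2 (Nrf2) rose from 10.41 and 10.40 to 10.94 and 11.14, sulfiredoxin Srxn1 from 8.60 and 8.66 to 9.33 and 9.21, and the glutathione transferase Gstm1 from 8.36 and 8.46 to 9.22 and 9.14. The other probe sets of Srxn1 stood at 0.08 and -0.065 and did not pass. A further transferase, Gsta4, fell from 8.77 and 8.71 to 7.44 and 7.80 (-1.12 ± 0.17, adjusted p = 0.0127). None of these 4 passed without 24 h replicate 1 (adjusted p 0.0632 to 0.109). Of 28 immediate early genes, Maff, a small Maf protein, rose from 7.04 and 6.92 to 7.72 and 7.66 (0.71 ± 0.12, adjusted p = 0.0189, and 0.0739 without 24 h replicate 1).

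**Figure D4:**
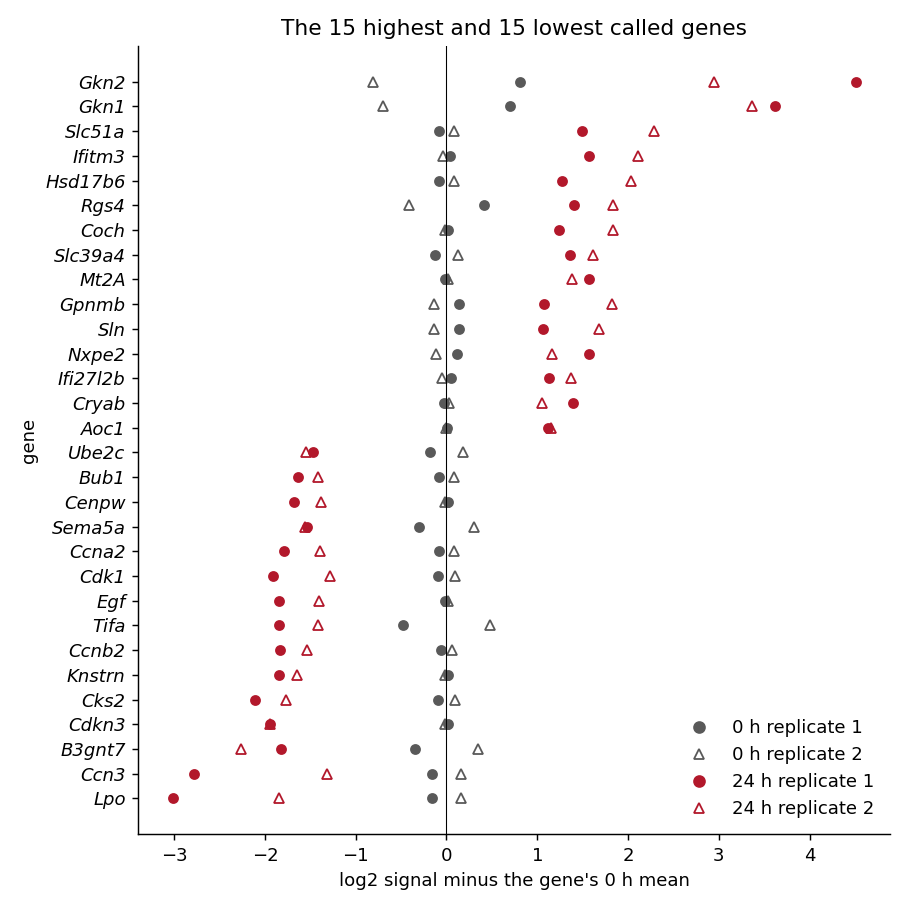
The 15 called genes with the highest and the 15 with the lowest log2 fold change (y axis) are plotted as log2 signal minus the gene's 0 h mean (x axis), grey for 0 h and red for 24 h, with circles for replicate 1 and triangles for replicate 2. The genes were chosen so that the 24 h and 0 h points do not overlap, and the pools at 24 h lie farthest apart for Gkn2, Ccn3 and Lpo.

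The other genes of highest fold change belonged to no common list. Slc51a, a subunit of the basolateral bile acid exporter, read 8.68 and 8.84 at 0 h and 10.26 and 11.05 at 24 h (1.89 ± 0.34, limma adjusted p = 0.0318). Hsd17b6, a steroid and retinol dehydrogenase, read 7.51 and 7.67 against 8.87 and 9.63 (1.66 ± 0.32, adjusted p = 0.0396). Rgs4, which shortens G protein signals, read 9.19 and 8.36 against 10.18 and 10.61 (1.62 ± 0.28, adjusted p = 0.0251). For all 3 the higher 24 h value was that of replicate 2. Sln, the calcium pump inhibitor sarcolipin of muscle, read 7.34 and 7.07 against 8.26 and 8.88 (1.37 ± 0.21, adjusted p = 0.0167), and was also higher than at 6 h and 72 h (1.38 and 1.30, adjusted p = 0.0252 and 0.0109). Coch, the matrix protein cochlin, read 5.06 and 5.03 against 6.28 and 6.87. Nxpe2, a protein with a neurexophilin domain, read 7.56 and 7.32 against 9.01 and 8.61. Ifi27l2b read 10.94 and 10.85 against 12.02 and 12.26 (1.25 ± 0.16, limma adjusted p = 0.00633). Over the 15 highest genes, leaving out 24 h replicate 1, 24 h replicate 2, 0 h replicate 1 and 0 h replicate 2 in turn left 11, 11, 4 and 0 calls.

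Of 32 interferon-induced genes, 3 rose and none fell, against 0.29% of all probe sets higher, and the median was 0.19. Ifitm3, which blocks virus entry at membranes, read 10.25 and 10.18 at 0 h and 11.78 and 12.32 at 24 h (1.84 ± 0.24, limma adjusted p = 0.00631), a 3.57-fold rise. Isg15, a ubiquitin-like protein, read 8.27 and 8.73 against 9.60 and 9.60 (1.09 ± 0.19, adjusted p = 0.025). Irf7, the factor that amplifies interferon genes, read 8.62 and 8.95 against 9.50 and 10.10 (1.02 ± 0.20, adjusted p = 0.0418). Gbp2 and Irf8 had log2 fold changes of -1.11 and -0.58, not past the threshold. At an unadjusted p under 0.05 in limma, 11 genes were higher and 2 lower, against 5196 of all 31042 probe sets in either direction. The list held 23 genes above 0 and 9 below, against 17155 and 13887 of all probe sets. Its median was 0.09 in 24 h replicate 1 and 0.33 in replicate 2, and without replicate 1 4 genes rose. Leaving out 24 h replicate 1, 24 h replicate 2, 0 h replicate 1 and 0 h replicate 2 in turn left 2, 1, 0 and 0 of the 3 calls.

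Among 28 genes of NF-kB and inflammatory cytokines, 1 rose and 2 fell, against 0.29% of all probe sets higher and 0.854% lower. Tnfaip3 (A20), which restrains NF-kB, rose from 8.19 and 8.28 to 8.84 and 8.98 (0.68 ± 0.11, limma adjusted p = 0.0217). Tlr4, the receptor for bacterial endotoxin, fell from 10.01 and 10.19 to 8.97 and 9.17 (-1.03 ± 0.16, adjusted p = 0.0134). Il18, an epithelial cytokine, fell from 10.36 and 10.13 to 9.17 and 9.0 (-1.16 ± 0.22, adjusted p = 0.0367). Without 24 h replicate 1, Tnfaip3 passed (log2 fold change 0.75), and Tlr4 (-0.93) and Il18 (-1.25) did not. Tnfaip3 did not pass when any other of the 4 arrays was left out. Of 30 chemokines and receptors, Cxcl16 rose from 9.50 and 9.44 to 10.06 and 10.13 (0.63 ± 0.10, adjusted p = 0.0211), and it did not pass when any 1 of the 4 arrays was left out. Ptgs2, the inducible cyclooxygenase, had a log2 fold change of 0.33 ± 0.23 (adjusted p = 0.48).

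Macrophage transcripts differed between the pools at 24 h. All 21 measured lay above their 0 h mean in replicate 2, with a median of 1.02, and 14 lay below it in replicate 1, with a median of -0.22. The median level of the list was 7.01 and 7.10 at 0 h and 6.98 and 8.13 at 24 h. Gpnmb, a lysosomal glycoprotein of activated macrophages, was the 1 call, from 8.07 and 7.80 to 9.01 and 9.76 (1.45 ± 0.22, limma adjusted p = 0.0126), and was high in both pools. Without replicate 1, Gpnmb, the haemoglobin scavenger receptor Cd163 and the Fc receptor Fcgr1a passed. Cd163 read 6.73 and 6.68 at 0 h and 6.81 and 7.96 at 24 h. Of the 15 complement genes none was called in limma over both pools. At an unadjusted p under 0.05, 4 were higher, against 5196 of all 31042 probe sets in either direction. In replicate 1, 9 lay above their 0 h mean and in replicate 2, 11, with medians of 0.14 and 0.56. Without replicate 1, C1s, C1r and their inhibitor Serping1 passed. Serping1 read 8.42 and 8.29 at 0 h and 8.72 and 10.61 at 24 h. Cxcl11, a chemokine for T cells, read 8.13 and 9.04 against 8.86 and 11.21.

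**Figure D5:**
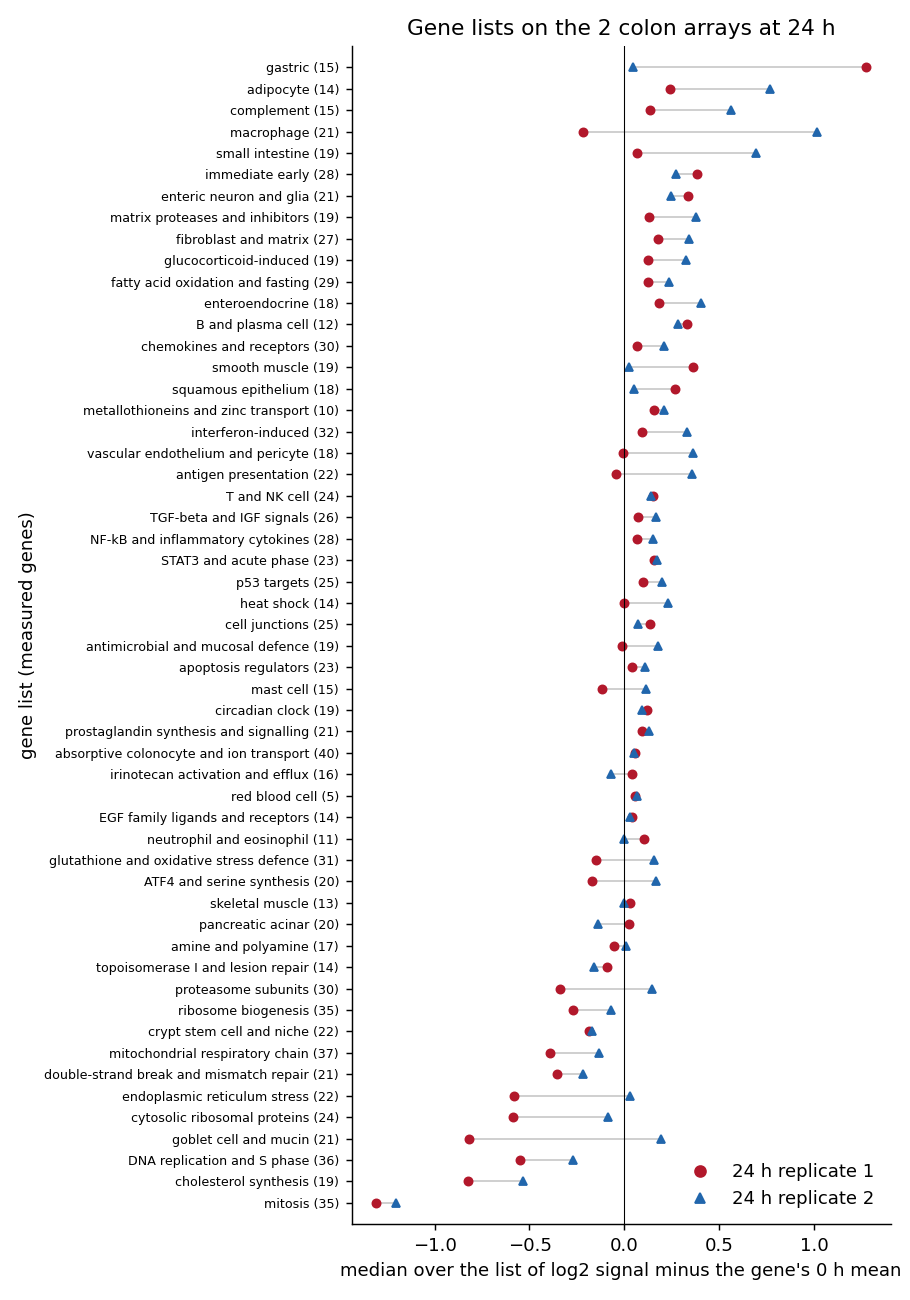
For each of the 54 gene lists (y axis, with the number of measured genes), the median log2 signal minus the 0 h mean (x axis) is shown for 24 h replicate 1 (red circles) and replicate 2 (blue triangles). The mitosis medians lie together at -1.31 and -1.20, whereas the goblet, macrophage and gastric lists have medians of -0.82 and 0.19, -0.22 and 1.02, and 1.27 and 0.05.

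Of 19 smooth muscle genes, 2 rose, against 0.29% of all probe sets higher: desmin (Des) from 12.21 and 12.08 to 12.91 and 12.92 (0.77 ± 0.11, limma adjusted p = 0.0126), and leiomodin (Lmod1) from 8.41 and 8.16 to 8.93 and 8.90 (0.62 ± 0.12, adjusted p = 0.038). Neither passed without 24 h replicate 1 (adjusted p = 0.0532 and 0.11), and the median of the list was 0.36 in replicate 1 and 0.03 in replicate 2. With the gastric transcripts as a term neither was called, and the median turned from 0.21 to -0.012. Of 27 genes of fibroblasts and matrix, Vim, the intermediate filament vimentin of mesenchymal cells, rose from 10.44 and 10.07 to 10.95 and 11.48 (0.96 ± 0.19, adjusted p = 0.0414). It passed without 24 h replicate 1 and did not without replicate 2 (adjusted p = 0.1). The matrix protein Mgp read 10.61 and 10.25 at 0 h and 11.40 and 12.85 at 24 h and did not pass over both pools (adjusted p = 0.0975), whereas it did without replicate 1 (0.0264) and in the fit of all 30 arrays (0.038). Igfbp5, a binding protein of insulin-like growth factors, rose from 8.59 and 8.70 to 9.69 and 9.48 (0.94 ± 0.13, limma adjusted p = 0.0099). Without replicate 1 its log2 fold change was 0.84 and it did not pass. The other probe sets of Igfbp5 stood at 0.41, 0.59, 0.38 and 0.11 and did not pass. With Ccn3, which fell, Igfbp5 was 1 of 2 calls among 26 genes of TGF-beta and IGF signals, against 1.14% of all probe sets called.

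Markers of other tissues were examined in the same way. Of 15 gastric genes, 2 rose, against 0.29% of all probe sets higher, both gastrokines of the surface mucous cells of the stomach. All 15 lay above 0, against 17155 of all 31042 probe sets. Gkn1 read 7.23 and 5.83 at 0 h and 10.14 and 9.89 at 24 h (3.49 ± 0.51, limma adjusted p = 0.0118) and was high in both 24 h pools. Gkn2 read 7.70 and 6.09 against 11.41 and 9.84 (3.73 ± 0.76, adjusted p = 0.049). Tff1, a trefoil factor of the same cells, read 7.11 and 6.96 against 10.43 and 8.95 (2.66 ± 0.55, adjusted p = 0.0506). The transcripts of chief and parietal cells, Pgc, Atp4a, Atp4b and Cblif (intrinsic factor), were high in replicate 1 alone, with Atp4b at 8.69 against 6.39 in replicate 2. The median of the list was 1.27 in replicate 1 and 0.05 in replicate 2, its summed level was 128.5 and 108.4 at 24 h against 101.6 and 95.4 at 0 h, and without replicate 1 none passed (Gkn1 adjusted p = 0.0572).

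Small intestinal transcripts were higher in replicate 2 at both times. Their median level over 19 genes was 7.08 and 8.07 at 0 h and 7.10 and 8.50 at 24 h, and their summed level 142.4 and 153.3 against 151.9 and 164.4. Fabp1, a fatty acid carrier of enterocytes, read 7.16 and 8.87 at 0 h and 10.19 and 11.74 at 24 h. Its log2 fold change of 2.95 ± 0.62 did not pass (limma adjusted p = 0.0542), and without 24 h replicate 1 it was 3.72 (0.041). Apoa4, an apolipoprotein of the small intestine, read 6.66 and 8.71 against 7.10 and 10.31. The median level of 14 adipocyte genes was 7.68 and 7.56 at 0 h and 8.04 and 8.69 at 24 h. None of the lists of adipocyte, small intestinal, pancreatic acinar, squamous, skeletal muscle or red blood cell transcripts held a call. In all, 26 of the 54 lists held none in limma, among them those of endoplasmic reticulum stress, the circadian clock, enteroendocrine cells, T and NK cells, B and plasma cells, mast cells, neutrophils and endothelium. Of the 522 entries of these 26 lists, 69 were higher and 54 lower at an unadjusted p under 0.05. Over all 31042 probe sets, 5196 were under 0.05 in either direction. The list of enteric neurons and glia held no call either, while 20 of its 21 genes lay above 0, against 17155 of all 31042 probe sets. The median of the 21 genes was 0.29 (0.33 in 24 h replicate 1 and 0.24 in replicate 2). In limma 12 of them were higher at an unadjusted p under 0.05, and 1 passed without 24 h replicate 1. The part of RNA from other tissues in the genes that rose was not tested.

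The jejunum of the same rats gives the response of another part of the gut. Tested as a difference between the colon and the jejunum response, 51 probe sets passed (0.164%), 38 with a lower value in the colon (0.122%) and 13 with a higher (0.0419%). Of the 51, 30 were also called in the colon, against 1.14% of all probe sets. The test holds the same colon arrays as that call, so such overlap is partly built in. Of the mitosis list 4 of 35 passed: Cenpf (difference -1.48 ± 0.28, limma adjusted p = 0.0352), Kif20a (-1.27 ± 0.21, adjusted p = 0.0151), Ttk (-1.14 ± 0.21, adjusted p = 0.0352) and Knstrn (-1.05 ± 0.14, adjusted p = 0.00335, and 0.179 in a second probe set, with a difference of -1.29). Kif20a read 8.09 and 8.12 at 0 h and 6.80 and 6.89 at 24 h in the colon, whereas its jejunum log2 fold change was 0.00. The median of the list was -1.27 in the colon and -0.18 in the jejunum. Egf fell by 1.62 on the log2 scale in the colon and stood at -0.04 in the jejunum (difference -1.59 ± 0.25, adjusted p = 0.0136), and Lpo stood at -2.43 and 0.28 (difference -2.71 ± 0.43, adjusted p = 0.0136).

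Other genes had like values in both. Ifitm3 had log2 fold changes of 1.84 in the colon and 1.69 in the jejunum, Gpnmb 1.45 and 1.30, Cryab 1.22 and 1.05, Vim 0.96 and 1.09, and Ddc -1.02 and -1.05. Their differences between the tissues did not pass (adjusted p 0.867 to 0.975 in limma), and with standard errors of up to 0.56 they do not show equal responses. Ccng1 stood at 0.34 in the colon and 1.56 in the jejunum, a difference of -1.22 ± 0.28 that did not pass (adjusted p = 0.0848). Without 24 h replicate 1 the test of the difference called 29 probe sets, and 7 without 0 h replicate 2.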

How the data were processed

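RNA pooled from 3 rats was hybridised to Rat 230 2.0 arrays, on which each probe set is summarised from several short probes. The deposited values are log2 signals. The authors made them with RMA, the tool that the submitters' processing notes name without a version. RMA normalises all arrays to 1 distribution, so a change in total RNA cannot be seen, and signals near background are compressed. The files give no depth, and the number of arrays limits the precision (median standard error 0.125 in log2).

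The 57 array control probe sets were left out and 31042 were tested. The 10 colon arrays were fitted by time with limma 3.58.1 (R 4.3.3, lmFit and eBayes, two-sided). The contrasts were 24 h against 0, 6 and 72 h, with Benjamini-Hochberg adjustment over all probe sets and a threshold of 0.05. The difference from the jejunum was fitted on all 30 arrays, with arrays of the same rats treated as independent. The script was tested on simulated data. The platform annotation gave 1 symbol to 20826 probe sets (20758 matched to RefSeq), several to 436 and none to 9780. A list gene is represented by its brightest probe set. Named genes are the 15 highest and 15 lowest calls with groups that do not overlap, by their probe set of smallest p, up to 6 members of each list, and a set of fixed genes. Where a list was described, other members were named after their values were seen. The rule, the lists and the comparison were chosen with earlier results of these data known. Promoters are from RefSeq (GRCr8).

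Replicate numbers did not pair the pools: deviations of equal numbers correlated at -0.30 to 0.36 between colon times. Alternatives were the fit of all 30 arrays or of the 4 compared arrays, array weights, trended and robust variances, quantile normalisation, dropping dim probe sets, the replicate number as a block, the mean of the gastric transcripts as a term, other probe sets, and leaving out each array.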

Additional observations from a re-analysis of the deposited data

Results flagged for a closer look

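Over all probe sets, 51 passed limma's test of the difference between the colon and the jejunum response at 24 h. Among the named genes and list members, 12 genes passed it, 11 of them described above, and only these are given here. Lactoperoxidase (Lpo) differed by -2.71 (log2 fold change -2.43 in the colon, 0.28 in the jejunum), Tifa by -1.88 (-1.63 and 0.25), Egf by -1.59 (-1.62 and -0.04), Cenpf by -1.48 (-1.39 and 0.10), Kif20a by -1.27 (-1.26 and 0.00), Ttk by -1.14 (-1.30 and -0.16) and Knstrn by -1.05 (-1.18 and -0.14). Higher in the colon were Hnmt, a histamine methyltransferase, by 1.30 (0.25 and -1.05), Coch by 1.44 (1.53 and 0.09), Nxpe2 by 1.52 (1.37 and -0.15), Gkn1 by 3.54 (3.49 and -0.05) and Gkn2 by 4.07 (3.73 and -0.34). Adjusted p lay between 0.00335 and 0.0493. The test holds the colon arrays at 24 h and 0 h, on which some of the named genes were chosen. Gkn1 and Gkn2 were high in both 24 h pools, whereas Pgc was high in replicate 1 alone, and the part of gastric RNA in these differences was not tested.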

How the results depend on the processing

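The count of 355 probe sets called between 24 h and 0 h (25.4% higher) became 897 in the fit of all 30 arrays (36.2% higher), 230 with the 4 arrays alone, 60 with the gastric term (48.3% higher) and 555 without the 2 arrays of high Pgc, a setting chosen after seeing the data (48.5% higher). It lay between 332 and 402 with array weights, quantile normalisation, trended variances, dim probe sets dropped or the replicate block (382). Leaving out 1 array gave 0 to 595. Against 6 h, 175 became 18 with the 4 arrays alone, 109 with the replicate block and 1 to 231 without 1 array. Against 72 h, 2088 became 178 with the 4 arrays alone and 293 to 3363 without 1 array. Against the jejunum, 51 became 84 with 20 arrays and 7 to 92 without 1 array. The 30 lower mitosis genes became 12 with the gastric term and 0 to 30 without 1 array, and the 7 cholesterol genes 0 and 0 to 9. The cause of these shifts was not tested.

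Of 76 named genes that were called, none changed sign between the settings applied to its own probe set, and 15 kept the call with the gastric term. Second probe sets of Rgs4, B3gnt7, Bdh1, Bok and Lss kept the sign and did not pass. Of the other probe sets of Stard4, 1 passed (-0.66) and 1 did not (-0.16). Signs turned for other probe sets of Sema5a (0.13) and Srxn1 (-0.065). They also turned for values that had not passed or had no test: with the gastric term the medians of the gastric (-0.039), smooth muscle (-0.012) and goblet lists (0.22, and 0.19 without 24 h replicate 1 or the arrays of high Pgc), Abcb1a (-0.38), Pgc (-2.10), Atp4a (-0.45), Atp4b (-0.19) and Cblif (-0.13), and without the arrays of high Pgc, Abcb1a (-0.23), Pgc (-0.57) and Atp4a (-0.17). Pgc and Atp4a are part of the gastric term, so their values and the gastric median under it were partly set by the fit. The macrophage median turned to -0.22 without 24 h replicate 2. Leaving out 1 array gave -0.23 to 0.65 for Abcb1a, -0.57 to 6.15 for Pgc and -0.17 to 2.60 for Atp4a, lowest without 24 h replicate 1. It gave -0.59 to 2.62 for Apoa4, which was below 0 without 0 h replicate 1 (-0.01) or 24 h replicate 2. The planned setting without arrays whose mean of 3 gastric transcripts was high was not run, since it took both 24 h arrays. With 2 pools a group, a gene that did not pass is not shown to be unchanged.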
